A study of Homo sapiens with 9 samples.

Results

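The m6A reader proteins are RNA-binding proteins that recognise N6-methyladenosine (m6A), the methyl mark on adenosine that METTL3 places on messenger RNA. The 10 genes were chosen by symbol and by no cut on their values, though with earlier results of these data known. The set holds the YTH domain genes YTHDF1, YTHDF2, YTHDF3, YTHDC1 and YTHDC2, the insulin-like growth factor 2 mRNA-binding protein genes IGF2BP1, IGF2BP2 and IGF2BP3, and FMR1 and ELAVL1. They are 10 of the 60649 genes in the count table, each matched to its Ensembl identifier through GENCODE v44, and all 10 passed the filter on low counts that left 19674 genes for testing. Of the 10 transcripts, FMR1 was higher and IGF2BP3 lower in the libraries labelled SM4 than in those labelled NC, and the other 8 did not pass the test in any comparison.

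Readers decide what becomes of a methylated transcript. A YTH domain holds the methylated adenosine in a hydrophobic pocket; the YTHDF proteins work in the cytoplasm, where they have been linked to translation and to decay through the CCR4-NOT deadenylase, and YTHDC1 works in the nucleus in splicing and export. The IGF2BP proteins bind through KH domains and are known for stabilising their target RNAs, often in embryonic tissue and tumours. FMR1 encodes FMRP, a translational regulator bound to polyribosomes, and ELAVL1 encodes HuR, which binds AU-rich elements and protects the transcripts that carry them from decay.

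The libraries came from OVCAR5, a human epithelial line that the study uses as an ovarian cancer model. Cells of every group had passed through lentiviral transduction and puromycin selection, and no drug or time point separates the groups in the labels. The labels give NC as the parental control and SM2 and SM4 as METTL3 knockdown, with 3 libraries in each of the 3 groups. By the study's methods, control cells received a hairpin of their own. The labels do not say which hairpin a group carried or whether it was a pool or a clone, and the METTL3 values below put in doubt which group is the control. The source field of the SM4 libraries also reads OVCAR6, OVCAR7 and OVCAR8, although the cell line field reads OVCAR5 for all 9 libraries. The labels do not say that the 3 libraries of a group came from separate cultures, so a p-value below measures the spread between these libraries, which may be technical.

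Library totals ran from 44103272 to 63693728 counts. The transcript named in the labels as knocked down did not fall. METTL3 was at 36.2, 34.4 and 36.6 CPM (counts scaled to the library total) in NC, 37.1, 39.8 and 40.01 CPM in SM2, and 60.6, 57.5 and 62.4 CPM in SM4. Its log2 fold change was 0.75 in SM4 against NC (adjusted p 2.21e-09, edgeR) and 0.12 in SM2 against NC (adjusted p 0.12), so the transcript was lowest in the group labelled as control and highest in a group labelled as knockdown. The study reports less METTL3 RNA in OVCAR5 cells with either knockdown hairpin than with the control hairpin. Its list of changed genes also has PECAM1 lower with either knockdown hairpin than with the control hairpin. In that order the group with the most METTL3 and the most PECAM1, here SM4 for both, would be the control. Which group was the control was not tested. Every direction below is between libraries with these labels and cannot be read as the direction of a knockdown. Read from SM4, the group with the most METTL3, the signs turn: FMR1 was lower and IGF2BP3 higher in both NC and SM2, while NC and SM2 overlapped for both genes. SM2 replicate 3 stood apart from its own group: a chi-square comparison of counts gave 16.1 and 13.4 per degree of freedom against SM2 replicates 1 and 2, and 4.16 to 6.01 in the other 7 replicate pairs, where sampling noise alone gives about 1. Among the readers, SM2 replicate 3 was the lowest of its group in 9 of 10 genes, against 37.0% of all genes tested, and results that change without it are marked below. Epithelial markers were high in every library (EPCAM 595 to 721 CPM, KRT8 4695 to 5988 CPM). Of the ovarian lineage markers PAX8 was at 7.90 to 9.57 CPM, MUC16 at 7.31 to 29.9 CPM, and WT1 and SOX17 at 0.208 CPM or less. Summed markers of blood, endothelium and fibroblasts were at 26.9 to 30.3 CPM in NC, 30.9 to 34.7 CPM in SM2 and 34.4 to 39.4 CPM in SM4; the blood marker PTPRC stayed at or below 0.0755 CPM, while the endothelial marker PECAM1 was at 5.48 ± 0.207 CPM in NC, 8.23 ± 0.640 in SM2 and 13.7 ± 1.14 in SM4 (SD, n = 3), and its part in the reader results was not tested.

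The first question was which reader transcripts differed between the groups. Genes counted as called when edgeR's quasi-likelihood F test gave an adjusted p below 0.05 (Benjamini-Hochberg, over all 19674 genes). In SM2 against NC, 0 of the 10 readers were called, where 22.3% of all genes were (12.0% higher and 10.3% lower); 1 reader (IGF2BP1) had an unadjusted p below 0.05, and DESeq2 also called 0. In SM4 against NC, 2 of 10 were called, FMR1 higher and IGF2BP3 lower, where 21.2% of all genes were (11.0% higher and 10.2% lower); 4 readers had an unadjusted p below 0.05. In SM4 against SM2, the same 2 genes were called in the same directions, where 12.8% of all genes were (6.04% higher and 6.76% lower). The median size of the change among the readers was 0.04, 0.10 and 0.07 on the log2 scale in these comparisons, against 0.16, 0.16 and 0.14 over all genes tested, and none of the 10 reached 0.50 in any of them. All readers but IGF2BP1 lay above the median level of the tested genes, and a comparison with genes of like level was not made. SM2 and SM4 were compared with the same NC libraries, so their values are not independent of each other. In bulk RNA, fewer cells that make a transcript and less of it per cell cannot be told apart. Leaving the SM2 libraries out of the fit raised the SM4 against NC count to 4, with YTHDF3 and ELAVL1 added on the lower side, as the share called over all genes rose from 21.2% to 28.1%.

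**Figure D1:**
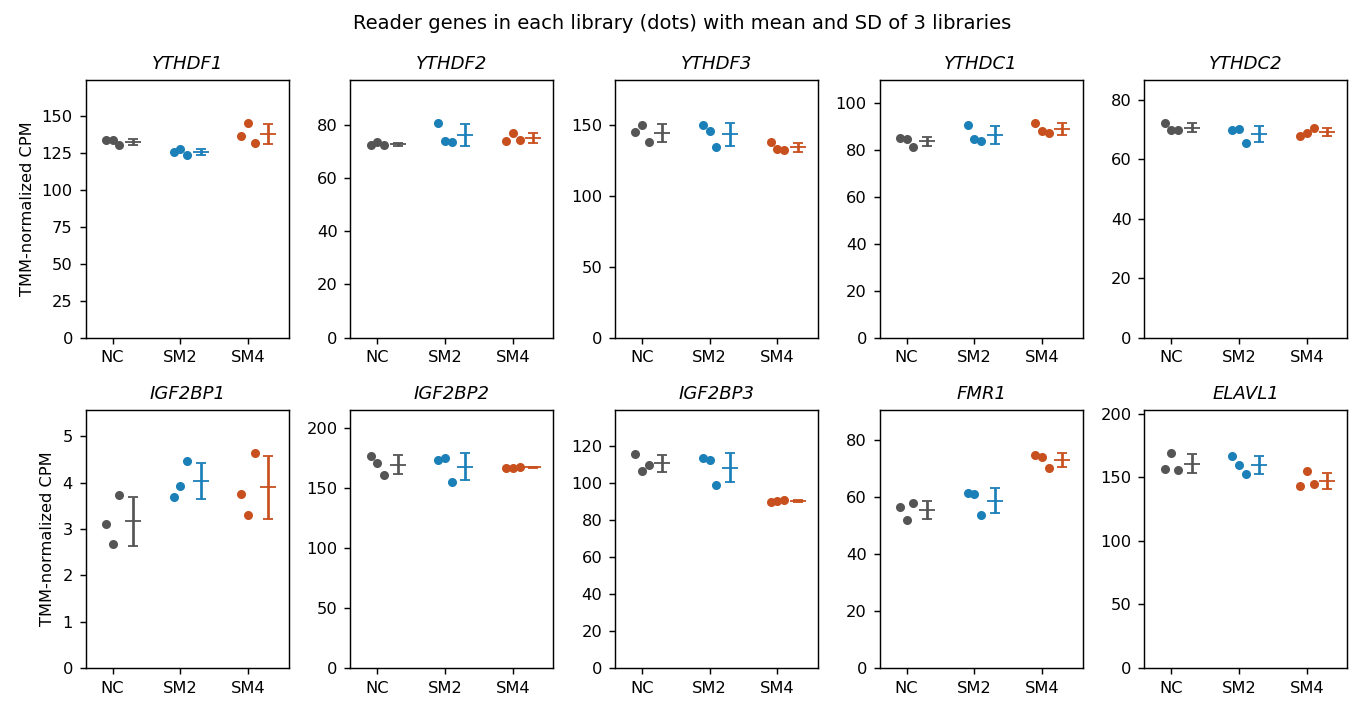
Level of each reader transcript in TMM-normalized CPM (vertical axis from 0) in the 3 libraries of NC, SM2 and SM4 (dots), with the mean and SD of 3 libraries beside them. The SM4 dots lie below all others for IGF2BP3 and above all others for FMR1, while the groups overlap or nearly touch in most other panels.

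The cytoplasmic YTHDF genes were not called in a comparison. YTHDF1, which has been tied to translation of methylated transcripts, was at 134, 134 and 130.4 CPM in NC, 126, 128 and 124 CPM in SM2, and 136, 146 and 132 CPM in SM4. SM2 lay below every NC and every SM4 library, and NC and SM4 overlapped. It was the 1 reader whose libraries did not overlap in SM2 against NC, where 35.2% of all genes tested did not. The log2 fold change was -0.08 (95% interval -0.17 to 0.02, adjusted p 0.251) in SM2 against NC and 0.13 (95% interval 0.04 to 0.23, adjusted p 0.052) in SM4 against SM2. The latter value sat at the threshold: over 19 alternatives its adjusted p ran from 0.00888 to 0.252 and passed in 7, DESeq2 among them (adjusted p 0.0234), as it did without SM4 replicate 3 (0.17, adjusted p 0.0476).

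YTHDF2, the reader best known for sending methylated transcripts to decay, was at 72.4, 73.4 and 72.2 CPM in NC, 80.7, 73.8 and 73.4 CPM in SM2, and 73.8, 77.1 and 74.2 CPM in SM4. Its NC libraries were close to each other (SD 0.627 CPM), and SM4 lay just above them without overlap. The difference in the means was small, with log2 fold changes of 0.06 (adjusted p 0.397) in SM2 and 0.05 (95% interval -0.05 to 0.15, adjusted p 0.570) in SM4 against NC. YTHDF3, which shares targets with the other YTHDF proteins, was at 145, 150.2 and 138 CPM in NC, 150.3, 146 and 134 CPM in SM2, and 138, 133 and 132 CPM in SM4. SM4 replicates 2 and 3 lay below every NC library, and SM4 replicate 1 lay just inside their range. The log2 fold change of YTHDF3 was -0.10 (95% interval -0.21 to -0.00, adjusted p 0.151) in SM4 against NC and -0.09 (adjusted p 0.238) in SM4 against SM2; without SM2 replicate 3 the latter became -0.14 (adjusted p 0.0262, over the alternatives 0.0262 to 0.533).

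Neither YTHDC gene was called in a comparison. YTHDC1, the nuclear reader, was at 85.0, 84.6 and 81.4 CPM in NC, 90.8, 84.5 and 83.9 CPM in SM2, and 91.6, 88.0 and 87.0 CPM in SM4. All SM4 libraries lay above all NC libraries, and SM2 overlapped both groups. The log2 fold change in SM4 against NC was 0.09 (95% interval -0.01 to 0.18, adjusted p 0.213). YTHDC2, an RNA helicase with a YTH domain that is needed for meiosis in germ cells, was at 72.4, 69.8 and 69.8 CPM in NC, 70.0, 70.1 and 65.6 CPM in SM2, and 68.0, 69.1 and 70.8 CPM in SM4. The 3 groups overlapped, and the 95% interval of its log2 fold change was -0.14 to 0.06 in SM2 and -0.13 to 0.07 in SM4 against NC.

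**Figure D2:**
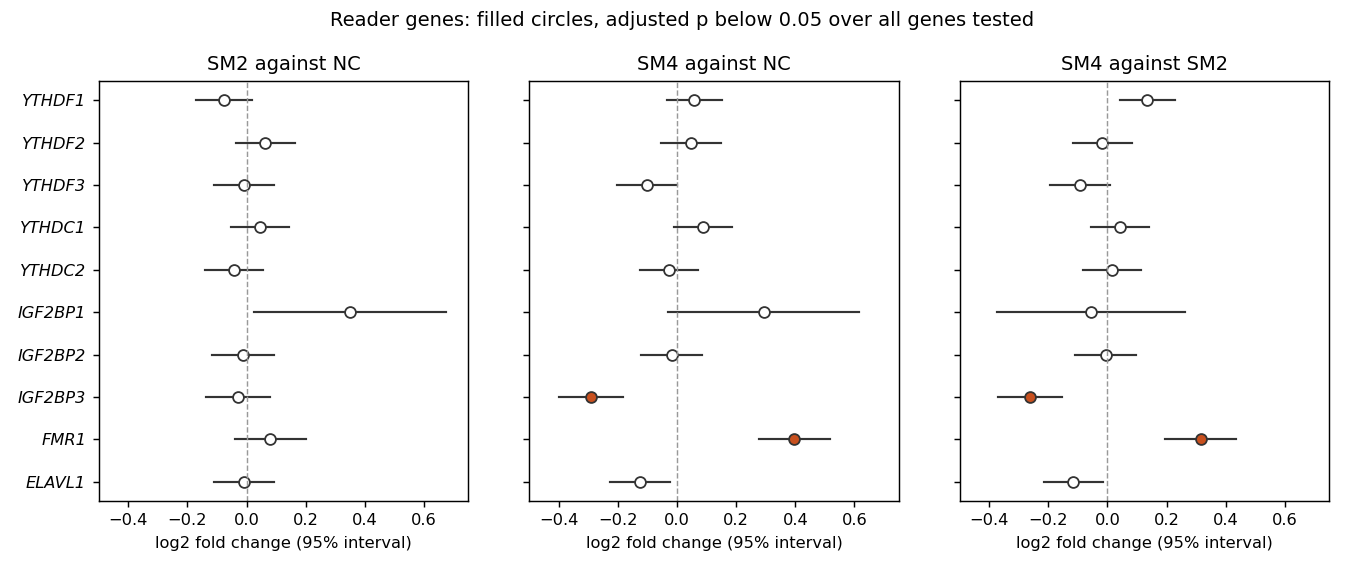
Log2 fold change of each reader gene (horizontal axis, points) with its 95% interval (lines) in 3 panels, SM2 or SM4 against NC and then SM4 against SM2; filled points have an adjusted p below 0.05. FMR1 (0.40 and 0.32) and IGF2BP3 (-0.29 and -0.26) are the filled points, both in the comparisons that involve SM4, and IGF2BP1 has the widest intervals.

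The IGF2BP genes behaved differently from each other. IGF2BP3, an oncofetal RNA-binding protein, was at 116, 107 and 109.8 CPM in NC, 114, 112 and 99.2 CPM in SM2, and 90.0, 90.4 and 90.7 CPM in SM4. The SM4 libraries lay below all 6 others and close to each other (SD 0.341 CPM), while NC and SM2 overlapped. IGF2BP3 fell by 18.3% in SM4 against NC (log2 fold change -0.29, SE 0.0518, 95% interval -0.40 to -0.18, adjusted p 0.000283) and by 16.6% in SM4 against SM2 (-0.26, SE 0.0518, adjusted p 0.00151), and was lower in 3 of 3 libraries in each. Between SM2 and NC its log2 fold change was -0.03 (95% interval -0.14 to 0.08, adjusted p 0.749). The exons of IGF2BP3 overlap those of MALSU1 on the opposite strand over 1521 bp, and whether counting used strand is not given in the sources used here; MALSU1 was at 34.4 to 41.4 CPM, and its log2 fold change was -0.09 in SM2 and -0.07 in SM4 against NC, neither called.

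IGF2BP2, the family member found most widely in adult tissue, was at 177, 171 and 161 CPM in NC, 174, 175 and 155 CPM in SM2, and 167, 167 and 168 CPM in SM4. The groups overlapped in each comparison. Its log2 fold change was -0.01 (95% interval -0.12 to 0.09) in SM2 and -0.02 (95% interval -0.12 to 0.08) in SM4 against NC. IGF2BP1, the member that binds MYC and ACTB transcripts in embryonic cells, was at 3.10, 2.67 and 3.72 CPM in NC, 3.70, 3.93 and 4.47 CPM in SM2, and 3.75, 3.31 and 4.64 CPM in SM4. It had 136 to 238 counts a library, against at least 2481 for every other reader, and its groups overlapped. Its log2 fold change had a wide interval at this depth, 0.35 (SE 0.156, 95% interval 0.02 to 0.67, adjusted p 0.121) in SM2 and 0.29 (SE 0.154, 95% interval -0.03 to 0.62, adjusted p 0.204) in SM4 against NC.

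FMR1, whose silencing causes fragile X syndrome, was at 56.6, 52.0 and 57.9 CPM in NC, 61.3, 61.1 and 53.8 CPM in SM2, and 74.9, 73.9 and 70.3 CPM in SM4. The SM4 libraries lay above all 6 others, and NC and SM2 overlapped. FMR1 rose 1.32-fold in SM4 against NC (95% interval 1.21 to 1.43, log2 fold change 0.40, SE 0.0575, adjusted p 3.03e-05) and 1.24-fold in SM4 against SM2 (95% interval 1.15 to 1.35, log2 fold change 0.32, adjusted p 0.000690), higher in 3 of 3 libraries in each. Between SM2 and NC the log2 fold change was 0.08 (95% interval -0.04 to 0.20, adjusted p 0.369); without SM2 replicate 3, which was the lowest of the SM2 libraries, it was 0.14 and passed the threshold (adjusted p 0.0446, over the alternatives 0.0446 to 0.790). The SM4 calls of FMR1 and IGF2BP3 held under all 19 alternatives in both comparisons, with log2 fold changes of 0.35 to 0.43 and 0.25 to 0.35 for FMR1 and of -0.32 to -0.26 and -0.32 to -0.23 for IGF2BP3.

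ELAVL1 was at 157, 169 and 156 CPM in NC, 166, 159.97 and 152 CPM in SM2, and 143, 155 and 145 CPM in SM4. Each SM4 library lay below each NC library, by a narrow margin at the nearest, and SM2 overlapped both groups. The log2 fold change was -0.12 (95% interval -0.23 to -0.02, adjusted p 0.0748) in SM4 against NC and -0.11 (adjusted p 0.136) in SM4 against SM2. ELAVL1 passed in 6 of 19 alternatives in SM4 against NC (adjusted p 0.0113 to 0.338), among them without SM2 replicate 3 (-0.12, adjusted p 0.0254) and without SM4 replicate 2 (-0.16, adjusted p 0.0498), and without SM2 replicate 3 in SM4 against SM2 (-0.15, adjusted p 0.0264). In SM4 against NC the libraries of 5 of 10 readers did not overlap (YTHDF2, YTHDC1, IGF2BP3, FMR1 and ELAVL1), near the 38.4% of all genes tested, and in SM4 against SM2 those of 3 of 10 (YTHDF1, IGF2BP3 and FMR1), near 28.3%.

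Since IGF2BP3 and FMR1 were the readers that differed, their promoters are shown, read from RefSeq on GRCh38.p14 as the 250 bases before the start of the transcript. RefSeq windows were matched for 7 of the 10 readers (YTHDF1, YTHDF2, YTHDC1, YTHDC2, IGF2BP2, IGF2BP3 and FMR1; 9 windows). The E-box CACGTG, the GC box GGGCGG and the TATA box TATAAA were searched on both strands; capitals mark the matches, and none overlaps another in these windows. The IGF2BP3 window is chr7:23470492-23470741 on the minus strand and the FMR1 window chrX:147911669-147911918 on the plus strand, written 5′ to 3′.
IGF2BP3: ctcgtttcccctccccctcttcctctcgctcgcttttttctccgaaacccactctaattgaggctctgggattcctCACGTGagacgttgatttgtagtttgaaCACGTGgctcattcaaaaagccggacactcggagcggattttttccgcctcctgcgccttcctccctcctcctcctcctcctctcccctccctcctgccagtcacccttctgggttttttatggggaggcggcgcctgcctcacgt
FMR1: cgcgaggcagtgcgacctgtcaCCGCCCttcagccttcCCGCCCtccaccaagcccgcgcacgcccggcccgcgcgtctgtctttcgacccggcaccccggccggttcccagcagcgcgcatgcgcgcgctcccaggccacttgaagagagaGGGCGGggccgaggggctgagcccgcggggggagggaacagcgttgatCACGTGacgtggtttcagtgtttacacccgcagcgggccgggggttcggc

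IGF2BP3 held 2 E-boxes, 174 and 146 bases before the start, and neither of the other motifs. FMR1 held 1 E-box 50 bases before the start and 3 GC boxes. Over 35116 promoters of the same length the E-box was found in 6.34%, the GC box in 42.6% and the TATA box in 10.7%. GC content was 56.8% with 15 CG dinucleotides for IGF2BP3 and 72.4% with 32 for FMR1, where the median promoter had 58% and 11. YTHDF1 held 1 E-box, and the windows of YTHDF2, YTHDC1, YTHDC2 and IGF2BP2 held none; among the 9 windows a TATA box was found in 1 of IGF2BP2. These are matches of letters and say nothing of what binds there.

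Reader transcripts can themselves carry m6A, which is placed mostly within a short consensus of which GGACT is a common form. GGACT was counted on the sense strand of the canonical GENCODE v44 transcript. FMR1 held 1 in 4441 bases (0.225 per kb) and IGF2BP3 held 2 in 4274 bases (0.468 per kb), where the median of 13775 protein-coding genes was 0.935 per kb and 91.4% held at least 1. The other readers ran from 1 in YTHDF1 and 2 in YTHDF3 to 5 in IGF2BP2 and 9 in IGF2BP1. The sites of FMR1 and IGF2BP3 nearest to the stop codon are shown with 10 bases on either side and GGACT in capitals. That of FMR1 lies in the 3′ UTR at chrX:147949565-147949589 (plus strand), 732 bases after the stop codon. That of IGF2BP3 lies in the coding sequence at chr7:23469971-23469995 (minus strand). Its position is -1613 bases from the end of the stop codon (before it), near the start of a coding sequence of 1740 bases. Whether either is methylated was not measured.
FMR1: ataaagaataGGACTtgtttttgtt
IGF2BP3: acgcgttcgtGGACTgcccggacga

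Levels were set side by side per kilobase of merged exon (RPKM), since CPM grows with transcript length. In NC, YTHDF1 was highest at 41.4 ± 0.586 RPKM (SD, n = 3), followed by IGF2BP2 at 31.8 ± 1.51, YTHDF3 at 23.4 ± 1.01, ELAVL1 at 23.1 ± 1.06 and YTHDF2 at 19.5 ± 0.168 RPKM. IGF2BP3 at 13.0 ± 0.538, YTHDC1 at 11.9 ± 0.283, YTHDC2 at 6.54 ± 0.138 and FMR1 at 5.40 ± 0.301 RPKM came next, and IGF2BP1 was far below at 0.329 ± 0.0552 RPKM. YTHDF3 and ELAVL1 overlapped across the NC libraries and the other neighbours did not. Against all 19637 tested genes with a length, whose median was 2.45 RPKM, YTHDF1 stood at the 94.1th percentile, FMR1 at the 63.5th and IGF2BP1 at the 21.3th, so each reader except IGF2BP1 lay above the median gene.

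Per kilobase of merged exon, the order changed at the 2 readers that differed. In SM4, YTHDC1 (12.6 RPKM) stood above IGF2BP3 (10.6 RPKM), and FMR1 (7.10 RPKM) above YTHDC2 (6.41 RPKM), without overlap between their libraries. In SM2 the order was that of NC, and the libraries of IGF2BP3 and YTHDC1 overlapped. The places in this order depend on the length used, and the exchange of YTHDC1 and IGF2BP3 was not seen with the longest transcript in place of merged exons, where IGF2BP3 stayed above YTHDC1 in SM4 (21.1 and 14.3 RPKM). With that length FMR1 also stood above YTHDC2 in SM4 (12.7 and 10.3 RPKM), but already in SM2 as well (10.2458 and 10.2261 RPKM), and IGF2BP3 in NC came to 25.9 RPKM, above YTHDF2 at 25.7 RPKM.

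**Figure D3:**
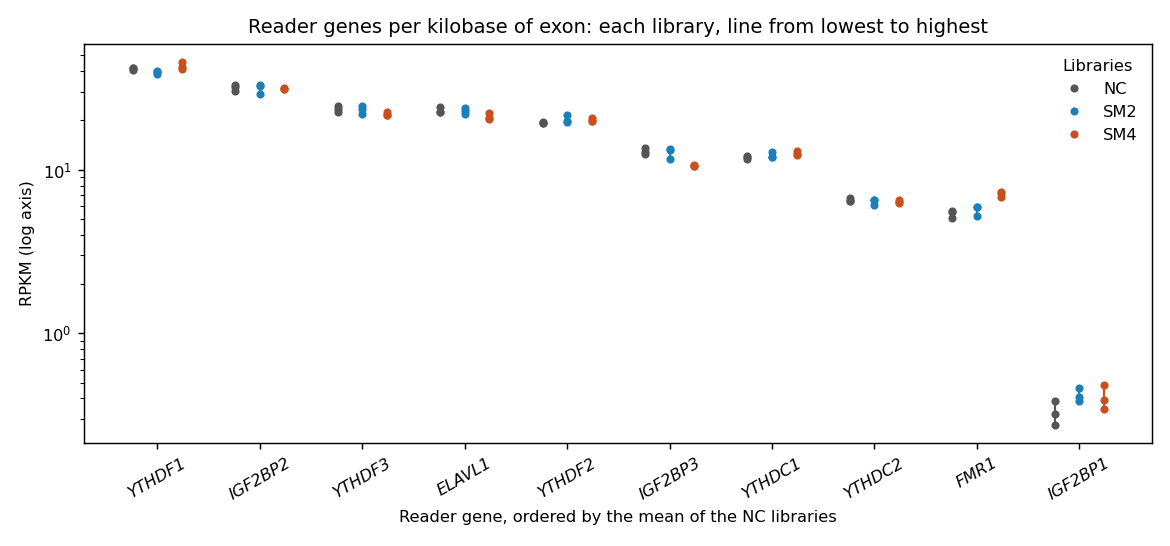
RPKM per kilobase of merged exon (vertical log axis) of each reader gene in each library, genes ordered by their NC mean, with a line from the lowest to the highest library of a group. YTHDF1 leads near 41.4 RPKM in NC, IGF2BP1 lies below 0.5 RPKM in every library, and the steps down for IGF2BP3 and up for FMR1 are seen in SM4.

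Within each family the shares moved by small amounts. The SM4 libraries lay apart from all others in the shares of YTHDF1, YTHDF3, IGF2BP2 and IGF2BP3. YTHDF1 made up 49.1% ± 0.412 of the summed RPKM of the YTHDF genes in NC, 47.4% ± 1.18 in SM2 and 50.6% ± 1.02 in SM4 (SD, n = 3), and YTHDF3 made up 27.8%, 28.1% and 25.7%. The summed level of the 3 YTHDF genes was 84.3 ± 1.69 RPKM in NC, 82.9 ± 2.64 in SM2 and 85.0 ± 2.54 in SM4, which overlap. The IGF2BP sum was 45.1 ± 1.81 RPKM in NC, 44.6 ± 3.01 in SM2 and 42.3 ± 0.216 in SM4, where SM4 lay below every NC library and overlapped SM2. IGF2BP2 made up 70.5% ± 1.03 of the IGF2BP sum in NC, 70.6% ± 0.182 in SM2 and 74.0% ± 0.106 in SM4, with IGF2BP3 at 28.8%, 28.4% and 24.995% and IGF2BP1 at 0.732%, 0.946% and 0.956%. The IGF2BP3 share of each SM4 library lay below that of each other library, as the level of IGF2BP3 did. These shares also depend on the length used and were given no test.

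The other genes of the reader pathways were described by lists, with no test of a list as a whole. A list gene said to fall or rise in SM2 or SM4 was lower or higher there than in the libraries labelled NC. As for the readers, these directions are between labels and not those of a knockdown. The close relatives of the readers were FXR1 and FXR2, which resemble FMR1, and the neuronal ELAVL genes. FXR1 was at 222 ± 5.59 CPM in NC, 238 ± 12.3 in SM2 and 234 ± 0.559 in SM4, and FXR2 at 52.5 ± 0.887, 50.01 ± 1.41 and 49.1 ± 1.11 CPM (SD, n = 3). Neither was called in a comparison, with log2 fold changes of 0.07 for FXR1 and -0.10 for FXR2 in SM4 against NC, beside 0.40 for FMR1. FXR1 was called in SM2 against NC in 3 of 19 alternatives (adjusted p 0.00753 to 0.388), among them without SM2 replicate 3. ELAVL2, ELAVL3 and ELAVL4 had at most 1, 4 and 0 counts in any library and were not tested.

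Among 10 other proteins described as m6A-binding or m6A-dependent, 3 were called in SM2 against NC (1 higher, 2 lower), 2 in SM4 against NC (both lower) and 2 in SM4 against SM2 (1 higher, 1 lower), where 22.3%, 21.2% and 12.8% of all genes were. G3BP2, a stress granule protein, was at 222, 209 and 209 CPM in NC, 204, 196 and 175 CPM in SM2, and 168, 170.1 and 168 CPM in SM4. The 3 groups did not overlap, and G3BP2 fell in SM2 (log2 fold change -0.15, adjusted p 0.0329), fell further in SM4 (-0.34, adjusted p 3.92e-05), and was lower in SM4 than in SM2 (-0.18, adjusted p 0.0172). Its relative G3BP1 fell in SM2 (-0.22, adjusted p 0.000654) but had -0.08 (adjusted p 0.232) in SM4, and was higher in SM4 than in SM2 (0.15, adjusted p 0.0291). SND1, a Tudor domain nuclease, rose in SM2 (0.16, adjusted p 0.00835), and ABCF1 fell in SM4 (-0.11, adjusted p 0.0485). The median log2 fold change of the list was 0.01, -0.00 and -0.01 in the 3 comparisons, against -0.00 in each over all genes. The calls of G3BP1 in SM2 and of G3BP2 in SM4 against NC held in all 19 alternatives, while that of ABCF1 held in 8, of G3BP2 in SM2 in 10, and of G3BP1 and G3BP2 in SM4 against SM2 in 11 and 13. The SM2 count fell to 1 without NC replicate 3, the SM4 count to 1 without any 1 of the NC or SM4 libraries or SM2 replicate 2, and the SM4 against SM2 count to 1 without SM2 replicate 1 or SM4 replicate 3 and to 0 without SM2 replicate 2, SM4 replicate 1 or SM4 replicate 2.

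YTHDF2 shortens the life of its targets by way of the CCR4-NOT deadenylase and of RNase P/MRP. Of 17 genes of this machinery, 3 were called in SM2 against NC and 2 in SM4 against NC, all lower, and 2 were called in SM4 against SM2, both higher (22.3%, 21.2% and 12.8% of all genes). CNOT9, a subunit of CCR4-NOT, was at 117, 108 and 110.05 CPM in NC, 79.3, 81.2 and 74.2 CPM in SM2, and 109.5, 112 and 111 CPM in SM4. The SM2 libraries lay below all others, and NC and SM4 overlapped. CNOT9 fell in SM2 against NC (log2 fold change -0.51, SE 0.0477, adjusted p 1.11e-07) and had -0.01 (adjusted p 0.886) in SM4 against NC, and SM4 was above SM2 by 0.50 (adjusted p 3.03e-07). POP1, a subunit of RNase P/MRP, was lower in SM2 and SM4 than in NC (-0.37, adjusted p 4.01e-05, and -0.34, adjusted p 0.000103), as was RPP25 of the same enzymes (-0.13, adjusted p 0.0473, and -0.22, adjusted p 0.000925). Neither POP1 (0.03, adjusted p 0.762) nor RPP25 (-0.10, adjusted p 0.180) was called in SM4 against SM2. CNOT1, the scaffold of CCR4-NOT, was higher in SM4 than in SM2 (0.20, adjusted p 0.0414). The calls of CNOT9, of POP1, and of RPP25 in SM4 held in all 19 alternatives; that of RPP25 in SM2 held in 6 (adjusted p 0.0105 to 0.161), being lost without any 1 library other than SM2 replicate 3, and that of CNOT1 held in 10. The list's median log2 fold change was -0.07, -0.04 and 0.03 in the 3 comparisons. The SM4 against NC count was 5 without SM2 replicate 3, and the SM4 against SM2 count was 1 without SM2 replicate 3 or any 1 of the NC or SM4 libraries.

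Of 9 partners of YTHDC1, YTHDC2 and FMR1, 3 were called in SM2 (1 higher, 2 lower), 3 in SM4 (2 higher, 1 lower) against NC and 1 in SM4 against SM2 (higher), beside 22.3%, 21.2% and 12.8% of all genes. CYFIP2, which binds FMRP and belongs to the WAVE complex that drives actin assembly, rose from 5.01 ± 0.502 CPM in NC to 8.41 ± 0.545 in SM2 and 7.49 ± 0.724 in SM4 (SD, n = 3; log2 fold changes 0.75 and 0.58, adjusted p 3.63e-05 and 0.000486), while CYFIP1 was not called (-0.05 and -0.02). NUFIP2, another FMRP-binding protein, was lower in SM2 and SM4 than in NC (-0.27, adjusted p 0.000461, and -0.17, adjusted p 0.0205), and NUFIP1 was lower in SM2 than in NC (-0.23, adjusted p 0.0291). In SM4 against SM2, CYFIP2 (-0.17, adjusted p 0.354), NUFIP2 (0.10, adjusted p 0.206) and NUFIP1 (0.06, adjusted p 0.692) were not called. NXF1, the mRNA export receptor on the path of YTHDC1, rose in SM4 against NC (0.16, adjusted p 0.0363) and against SM2 (0.19, adjusted p 0.0209). SRSF3, the splicing factor that YTHDC1 recruits, had 0.00 and 0.00. CYFIP2 in both and NUFIP2 in SM2 held in all 19 alternatives, and NUFIP2 in SM4, NUFIP1 in SM2, and NXF1 in SM4 against NC and SM2 held in 15, 12, 12 and 15. The list's median log2 fold change was -0.03, 0.05 and 0.06. The SM4 count was 1 without NC replicate 1, SM4 replicate 1 or SM4 replicate 2, and the SM4 against SM2 count was 0 without SM2 replicate 1, SM4 replicate 1 or SM4 replicate 3.

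**Figure D4:**
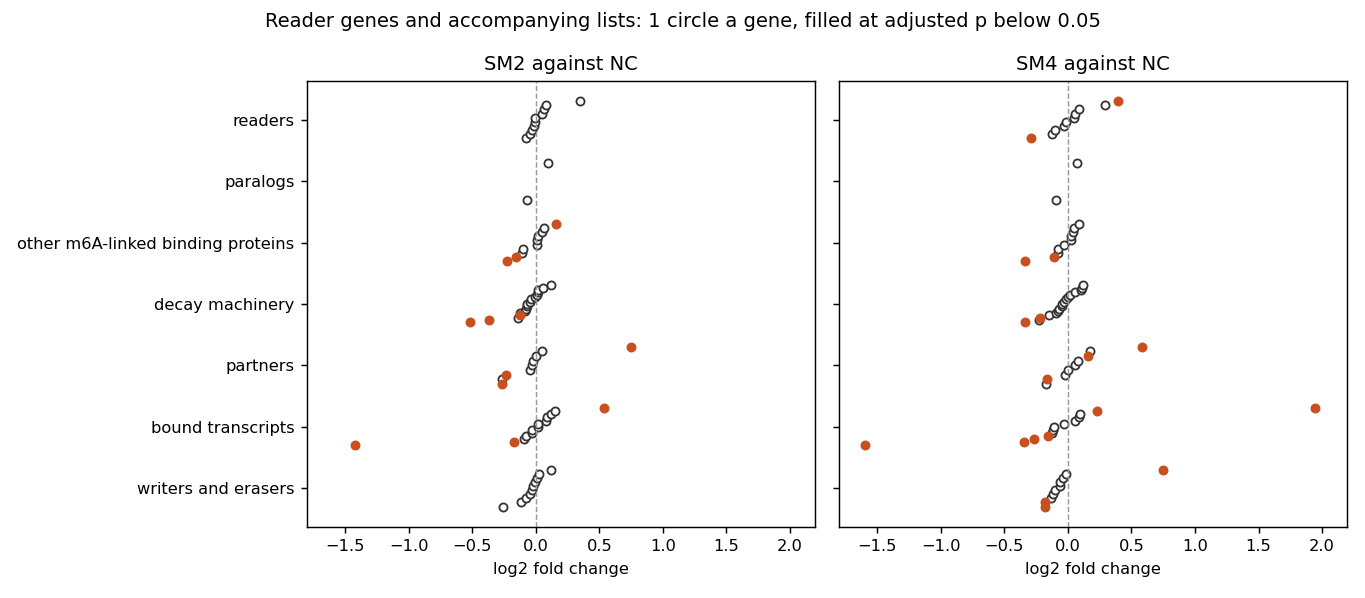
Log2 fold change (horizontal axis) of each tested gene of the readers and the accompanying lists, 1 circle a gene, in SM2 against NC and SM4 against NC; filled circles have an adjusted p below 0.05. The readers lie within 0.50 of 0 on both sides, while the bound transcripts reach -1.60 (PTGS2) and 1.94 (IGF2) in SM4.

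The last question was what the transcripts that IGF2BP proteins or HuR are known to bind and stabilise did in the same libraries. Of 14 such transcripts 13 were tested (LIN28B had 0 counts in every library); 3 were called in SM2 against NC (1 higher, 2 lower), 6 in SM4 against NC (2 higher, 4 lower) and 5 in SM4 against SM2 (1 higher, 4 lower), where 22.3%, 21.2% and 12.8% of all genes were. PTGS2, the cyclooxygenase gene with AU-rich elements that HuR binds, was at 105, 89.8 and 105 CPM in NC, 37.7, 39.4 and 34.7 CPM in SM2, and 33.4, 32.5 and 33.1 CPM in SM4. It was lower in SM2 and SM4 than in NC by more than any other gene of the list (log2 fold changes -1.42, adjusted p 2.56e-12, and -1.60, adjusted p 1.92e-13). In SM4 against SM2 PTGS2 was not called (-0.17, adjusted p 0.0844). There it passed in 2 of 19 alternatives, among them without SM2 replicate 3. CD44, an adhesion receptor whose transcript IGF2BP proteins bind, was at 427, 421 and 417 CPM in NC, 392, 377 and 355 CPM in SM2, and 333, 339 and 324 CPM in SM4. The 3 groups did not overlap. CD44 was lower than in NC both in SM2 (-0.17, adjusted p 0.00534) and in SM4 (-0.34, adjusted p 3.97e-06), and lower in SM4 than in SM2 (-0.17, adjusted p 0.00855). Read from SM4, CD44 was higher in both NC and SM2.

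FSCN1, which encodes the actin-bundling protein fascin, and MYC were lower in SM4 than in NC (-0.27, adjusted p 0.000222, and -0.16, adjusted p 0.0141) and than in SM2 (-0.35, adjusted p 2.14e-05, and -0.18, adjusted p 0.0104). HMGA2, a chromatin protein of embryonic tissue, rose in SM2 (0.54, adjusted p 4.08e-07) and was lower in SM4 than in SM2 (-0.66, adjusted p 4.74e-08). CCND1, encoding cyclin D1, rose in SM4 (0.23, adjusted p 0.00147). IGF2, the growth factor transcript for which the family is named, rose in SM4 against NC (1.94, SE 0.308, adjusted p 8.15e-05) and against SM2 (2.02, SE 0.313, adjusted p 0.000119) but had 13 to 85 counts a library. MYC held in 15 and 17 of 19 alternatives against NC and SM2, the latter call being lost without SM4 replicate 1 and the former without NC replicate 1, SM4 replicate 1 or SM4 replicate 3, and CD44 from SM2 to SM4 was lost without SM4 replicate 1 or 3. The median log2 fold change of the list was 0.02, -0.11 and -0.09 in the 3 comparisons. The SM2 count was 5 without SM2 replicate 3, and the SM4 against SM2 count was 8 without SM2 replicate 1 and 3 without SM4 replicate 1.

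Of 10 writers and erasers, METTL3 included, 0 were called in SM2 against NC in edgeR (2 with an unadjusted p below 0.05; DESeq2 called 1), 3 in SM4 against NC (1 higher, 2 lower) and 1, METTL3, in SM4 against SM2 (22.3%, 21.2% and 12.8% of all genes). METTL3 rose, and the demethylase genes ALKBH5 (-0.18, adjusted p 0.0288) and FTO (-0.18, adjusted p 0.0428) fell in SM4 against NC. Those of ALKBH5 and FTO held in 13 and 10 of 19 alternatives. METTL14, the partner of METTL3, was not called (0.02 and -0.13). The SM2 count was 2 without SM2 replicate 1 and 1 without SM2 replicate 2, the SM4 count was 1 without any 1 of the NC libraries, SM4 replicate 1 or SM4 replicate 3 and 5 without SM2 replicate 3, and the SM4 against SM2 count was 2 without SM2 replicate 1 and 3 without SM2 replicate 3.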

How the data were processed

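Messenger RNA was measured in 9 libraries of OVCAR5 cells. The authors checked the reads, aligned them with HISAT2 to hg38, ran featureCounts of Subread per gene, and deposited the raw counts without normalization; versions, annotation and strand setting are not given in the sources used here. The labels name a stranded kit and paired-end reads, and the study's methods another kit and single-end reads, so the layout is uncertain. Symbols, coordinates and lengths came from GENCODE v44 (60463 of 60649 identifiers matched without their version), and promoters from RefSeq on GRCh38.p14. In R 4.3.3, filterByExpr of edgeR 4.0.16 left 19674 genes. Genes were tested with edgeR's quasi-likelihood F test after TMM normalization, in 1 model of 9 libraries with the group alone, adjusted by Benjamini-Hochberg; intervals are 95%. CPM and RPKM were computed from the counts and TMM-scaled totals; without molecular identifiers, counting error is a lower limit of the error. All 10 readers are named; of the lists, the genes called. Alternatives were DESeq2 1.42.0, other normalizations, filters, thresholds and sample sets, a gene length trend, a replicate block and leaving out each library. The script was tested on simulated data. Members, lists and tests were chosen with earlier results of these data known.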

Additional observations from a re-analysis of the deposited data

Results flagged for a closer look

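For 2 readers the change from NC differed between SM2 and SM4 by the test of the difference itself (SM4 against SM2, in which the shared NC libraries drop out). IGF2BP3 had -0.03 in SM2 and -0.29 in SM4 against NC, a difference of -0.26 (adjusted p 0.00151). FMR1 had 0.08 in SM2 and 0.40 in SM4 against NC, a difference of 0.32 (adjusted p 0.000690). Both were called in SM4 against SM2 without SM2 replicate 3 too. Since the METTL3 values put in doubt which group is the control, these differences cannot be read as 2 knockdowns that disagree. The METTL3 transcript was also higher in SM4 than in SM2 (0.63, adjusted p 7.46e-08), and its part in these differences was not tested.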

How the results depend on the processing

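The calls of FMR1 and IGF2BP3 in SM4, against NC and against SM2, held under each of 19 alternatives. Reader counts moved from 2 to 4 in SM4 against NC with the 6 libraries compared alone (28.1% of all genes called), and with the gene length trend removed and a replicate block they came to 1 (IGF2BP1, log2 fold change 0.38, adjusted p 0.0391), 4 and 4 in SM2, SM4 and the comparison of SM4 with SM2 (25.6%, 24.6% and 15.4% of all genes). Without 1 library at a time the reader counts were 0 to 1, 2 to 3 and 2 to 4 in these comparisons, and the counts over all genes 3209 to 4623, 2933 to 5227 and 1574 to 2748; at an adjusted p below 0.01 the latter were 2775, 2646 and 1393. Replicate numbers did not pair the libraries: deviations from group means correlated at -0.0530 to 0.0453 for the same number and -0.0651 to 0.0923 for different ones. With the number as a replicate block the reader counts were 0, 3 and 3, with 4693, 4484 and 2815 over all genes, and counts that moved were 5 (other binding proteins, SM2), 8 (bound transcripts, SM4 against SM2), and 1 and 2 (writers and erasers, SM2, and SM4 against SM2). With the length trend removed, the paralog count in SM2 was 1 and the writer and eraser counts 1 in SM2 and 4 in SM4 against SM2; with the block added these were 1, 1 and 4, with 5 for writers and erasers in SM4 and 8 for bound transcripts in SM4 against SM2. For writers and erasers in SM2, no filter, a mean of at least 1 CPM and DESeq2 each gave 1. For other binding proteins in SM4, DESeq2 size factors, upper-quartile factors, no filter and the 0.01 threshold each gave 1. With 6 libraries, decay machinery and writers and erasers gave 5 and 5 in SM4, and other binding proteins and decay machinery 1 and 1 in SM4 against SM2, where no filter gave 4 for decay machinery. The 0.01 threshold gave 1 for partners and 1 for writers and erasers in SM4, and 0, 1 and 0 for other binding proteins, decay machinery and partners in SM4 against SM2. Without 1 library at a time, in the order SM2, SM4 and SM4 against SM2, paralogs gave 0 to 1, 0 to 0 and 0 to 0, other binding proteins 1 to 4, 1 to 3 and 0 to 2, decay machinery 2 to 4, 2 to 5 and 1 to 3, partners 2 to 3, 1 to 3 and 0 to 1, bound transcripts 3 to 5, 5 to 8 and 3 to 8, and writers and erasers 0 to 2, 1 to 5 and 1 to 3. Values near 0 changed sign without being called: in SM2 against NC, upper-quartile factors gave 0.00420 for YTHDF3, 0.0011 for IGF2BP2 and 0.00395 for ELAVL1, and without 1 library YTHDF3 ran from -0.045 to 0.040, IGF2BP2 from -0.050 to 0.047, IGF2BP3 from -0.066 to 0.034 and ELAVL1 from -0.042 to 0.028. In SM4 against NC IGF2BP2 ran from -0.057 to 0.013. In SM4 against SM2 YTHDC2 was -0.019 with the length trend removed, with or without the block (range without 1 library -0.018 to 0.034), and YTHDF2 ran from -0.042 to 0.028, IGF2BP1 from -0.195 to 0.051 and IGF2BP2 from -0.062 to 0.029. The cause of these shifts was not tested. Levels moved by more than 1 SD in 24 of 30 RPKM values and in 18 of 18 family shares with the longest transcript as length, and in 2 of 30 with plain library totals. Depth limits IGF2BP1 most.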
